A study of Mus musculus with 9 samples.

Results

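The genes described here are the chaperones of the endoplasmic reticulum (ER), the sensors and degradation factors of the unfolded protein response (UPR), and the heat shock proteins of the cytosol and mitochondria. They are 39 named genes, each matched by symbol to 1 row of a table of 50813 genes. The cells were LLC, a mouse Lewis lung carcinoma line with a mesenchymal-like phenotype that stably expresses luciferase, grown in DMEM with fetal bovine serum and antibiotics. RNA-seq was done on 3 libraries of WT cells and on 3 libraries each of CD47 KO clone E3 and CD47 KO clone E5, to ask which transcripts differ when CD47 is lost. CD47 is a membrane protein best known as a signal against phagocytosis. Both KO lines came from cells electroporated with Cas9 ribonucleoproteins targeting CD47. Each KO line is 1 clone, so the genotype and the individual clone cannot be told apart within either line, and the libraries measure the spread between 3 biological replicates of a line. In bulk RNA from a culture, a change in the share of cells that express a gene cannot be told apart from a change in RNA per cell.

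Proteins bound for secretion or for membranes fold in the ER with the help of BiP (Hspa5), its co-chaperones, lectin chaperones and disulfide isomerases. When unfolded protein accumulates, the sensors ATF6, IRE1 (Ern1) and PERK (Eif2ak3) start the UPR. Cleaved ATF6 and the XBP1 protein made after IRE1 splices its mRNA raise transcription of chaperones and of ER-associated degradation (ERAD) factors. PERK slows translation and raises ATF4, which drives genes of amino acid supply and of the CHOP branch. The cytosol has a separate heat shock response, in which the factor HSF1 raises HSP70, HSP90, small heat shock proteins and their co-chaperones.

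The DNA elements through which these factors act could be found in the promoters of several of the genes, in RefSeq promoter windows of GRCm38.p6 (an older build than the GRCm39 of the counts) that run from 250 bases before the start site to 50 bases after it. A window was available for 31 of the 39 genes, and Hyou1, Manf, Atf6, Derl1, Hspa8, Hsp90aa1, Hsp90ab1 and Hsf1 were not matched. The ER stress response element (ERSE), searched on both strands as CCAAT and CCACG with 9 bases between them, was in the windows of 8 genes (Hspa5, Hsp90b1, Canx, Dnajc3, Pdia6, Creld2, Syvn1 and Derl3), compared with 0.137% of the 27025 genes with a window. The sites below are those of all these genes except Derl3, which was not tested, whether or not the gene changed. They are written 5′ to 3′ along the gene, with the 2 conserved blocks in capitals (CCAAT and CCACG, or CGTGG and ATTGG where the element lies on the opposite strand).
Hspa5, chr2:34772013-34772055, plus strand: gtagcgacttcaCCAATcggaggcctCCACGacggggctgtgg
Dnajc3, chr14:118937815-118937857, plus strand: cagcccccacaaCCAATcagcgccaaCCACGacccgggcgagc
Pdia6, chr12:17266479-17266521, plus strand: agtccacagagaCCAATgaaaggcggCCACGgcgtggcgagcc
Creld2, chr15:88819508-88819550, plus strand: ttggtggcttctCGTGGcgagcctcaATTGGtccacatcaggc
Hsp90b1, chr10:86705626-86705668, minus strand: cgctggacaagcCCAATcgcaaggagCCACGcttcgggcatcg
Hsp90b1, chr10:86705521-86705563, minus strand: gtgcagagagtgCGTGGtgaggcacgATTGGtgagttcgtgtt
Canx, chr11:50325788-50325830, minus strand: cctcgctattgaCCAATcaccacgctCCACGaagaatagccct
Syvn1, chr19:6046520-6046562, plus strand: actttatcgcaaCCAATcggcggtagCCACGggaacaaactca

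The ERSE-II form, ATTGG and CCACG with 1 base between them, was in the windows of Herpud1 and Dnajb11, compared with 0.0444% of genes. The UPR element core TGACGTG was in that of Hspa5 alone among the 31, compared with 2.22% of genes. A heat shock element, 3 triplets that alternate GAA and TTC with 2 bases between them, was in the windows of Hsph1, Hspd1 and Hspe1, compared with 0.662% of genes. Hspd1 and Hspe1 are divergent neighbours, and their 2 overlapping matches are the same bases read from either side. The sites upstream of the start are given next, with the motif letters in capitals.
Herpud1, chr8:94386365-94386399, plus strand: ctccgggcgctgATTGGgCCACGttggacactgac
Hspa5, chr2:34771921-34771951, plus strand: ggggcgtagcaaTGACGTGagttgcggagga
Hspd1, chr1:55088047-55088083, minus strand: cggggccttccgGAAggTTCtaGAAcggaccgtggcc
Hspe1, chr1:55088047-55088083, plus strand: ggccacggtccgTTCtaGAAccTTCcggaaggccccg

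Total counts were 44257404 to 55095219, above the read number that the labels give, and whether reads or read ends were counted is not given in the sources used here. The 39 genes took 2.07% to 2.57% of them, and mitochondrial genes took 0.999% to 1.32%. Cd47, the targeted gene, was at 187, 179 and 182 CPM in the WT libraries, 47.4, 36.7 and 49.6 CPM in clone E3 and 15.5, 18.6 and 18.1 CPM in clone E5, which gave log2 fold changes of -2.03 ± 0.13 (SE, adjusted p = 4.9e-06) and -3.39 ± 0.14 (SE, adjusted p = 1.07e-07). The cells carried the marker of their line, with Vim at 4131 to 6833 CPM, whereas Epcam was at 0 in every library. Vim was called higher than WT in both clones, and Cdh2, the other marker of the line, in neither. Summed over Cdh1, Epcam, Krt8 and Krt18, epithelial genes were at 450.5 to 458 CPM in WT, 127 to 198 CPM in E3 and 896 to 957 CPM in E5. The summed level of 4 leukocyte markers was 2.51 to 3.03 CPM in WT, 2.35 to 2.59 CPM in E3 and 2.76 to 3.45 CPM in E5, nearly all of it Cd68. The 2 endothelial markers summed to at most 0.148 CPM and the 2 alveolar markers were at 0 in all libraries. The keratins Krt8 and Krt18 fell in clone E3 (log2 fold changes of -2.33 and -1.08) and rose in clone E5 (0.95 and 1.08). Their part in the results below was not tested.

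Replicate 3 of clone E3 stood apart by transcript length. Its median level relative to the WT mean was 0.52 on the log2 scale for 944 genes with transcripts under 1500 bases and -0.58 for 2584 genes with transcripts over 5000 bases, a gap of -1.1. Its 20 most abundant genes took 9.12% of the counts, compared with 7.22% to 7.96% in the other libraries. The gap lay between -0.0807 and 0.12 in the other 8 libraries. Among the genes described here it also read low for long transcripts: relative to the mean of replicates 1 and 2, the 9 genes with transcripts over 5000 bases had a median of -0.34 (-0.998 to 0.17) and the 10 with transcripts of up to 2500 bases a median of 0.37 (-0.06 to 0.74). Values without this library are therefore also given below for several genes that it moved, and its part in other differences was not tested.

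**Figure D1:**
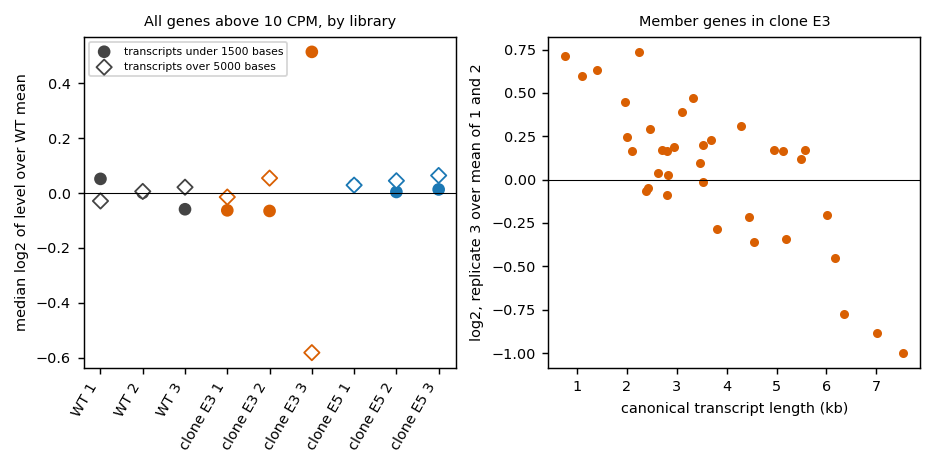
Transcript length and replicate 3 of clone E3. The left panel shows, for each of the 9 libraries, the median log2 level over the WT mean of short (filled circles) and long (open diamonds) transcripts, which separate to 0.52 and -0.58 in replicate 3 of clone E3. In the right panel each point is 1 of the 36 tested genes, with its transcript length in kb on the horizontal axis and the log2 of its level in that library over the mean of replicates 1 and 2 on the vertical axis.

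Of the 39 genes, 36 had enough reads to be tested. Derl3, a derlin of secretory cells, had 0 counts in all 9 libraries, and its promoter window holds an ERSE. Hspa1a, an inducible HSP70, had 0 to 5 counts per library, and Hspb1, the small heat shock protein HSP25, had 0 to 2. Their levels are uncertain, because 48.6% of the 100-base windows of Hspa1a and 55.5% of those of Hspb1 are also found in other genes. The gene sharing most is Hspa1b for Hspa1a and a pseudogene for Hspb1.

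Per length of the canonical transcript, levels in WT cells ran over more than 3 orders of magnitude. Hsp90ab1, the constitutive cytosolic HSP90, was the most abundant at 2142 ± 46.1 CPM per kb (SD, n = 3). Next came Hspa8, the constitutive HSP70, at 753 ± 96.9 CPM per kb and Hspd1, the mitochondrial HSP60, at 693 ± 35.6, which did not differ beyond their spread. Hsp90b1 (GRP94) led the ER chaperones at 523 ± 11.6 CPM per kb. The collagen chaperone Serpinh1 (276 ± 3.2), calnexin (Canx, 262 ± 7.26), P4hb (261 ± 13.1) and Hspa5 (251 ± 10.0 CPM per kb) followed within a narrow range, and the last 3 did not differ beyond their spread. Among the sensors Ern1 (68.8 ± 1.18) was above Atf6 (57.8 ± 3.44), and Eif2ak3 was the lowest at 7.61 ± 0.0622 CPM per kb. Hspa1b, the inducible HSP70, was at 0.516 ± 0.0796 CPM per kb, the lowest level among the genes tested.

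In clone E3, 16 of the 36 genes were higher than in WT cells and 5 were lower at a false-discovery rate (FDR) under 0.05, while 15.7% of all 14593 genes tested were higher and 14.7% lower (by the quasi-likelihood test of edgeR, Benjamini-Hochberg adjusted). The share that was higher was above that background and the share that was lower was close to it. In clone E5, 5 were higher and 9 lower, against 8.96% and 11.7% of all genes. These counts depended on single libraries, with 2 higher and 5 lower without any 1 of the WT libraries or E5 replicate 2, 2 and 6 without E5 replicate 1, 4 and 6 without E5 replicate 3, and 7 and 11 without E3 replicate 3. Without a WT library or E5 replicate 2, 4.52% to 5.15% of all genes were higher and 7.33% to 7.97% lower. These shares were 5.13% and 7.7% without E5 replicate 1, 6.84% and 9.13% without E5 replicate 3, and 20.8% and 21.2% without E3 replicate 3. Except without E5 replicate 3, the share of the 36 genes that was higher was near that of all genes. Between the clones, E5 was higher than E3 for 1 gene and lower for 18, against 14.7% and 17.2% of all genes. The share that was lower was above the background and the share that was higher below it. The number higher was 3 without E3 replicate 1 and 5 without E3 replicate 3, and the number lower was 12 without E5 replicate 2 or 3. In those fits the shares of all genes were 13.5% and 22.4% higher, and 11.9% and 12.5% lower. The median log2 fold change of the 36 genes was 0.29 in clone E3, -0.09 in clone E5 and -0.32 for E5 against E3, where the medians over all genes tested were 0.0102, -0.00231 and -0.0113. With the additional threshold of an absolute log2 fold change above 1, differentially expressed genes (DEGs) were 3 in clone E3 (Hspa1b, Atf6 and Ern1, against 9.82% of all genes), 0 in clone E5 (against 8.21%) and 1 between the clones (Manf, against 11%). The count for clone E5 was also 0 at an unadjusted p under 0.05 and by DESeq2. Both clones were compared with the same 3 WT libraries and each with the other, so the 3 comparisons are not independent of each other.

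**Figure D2:**
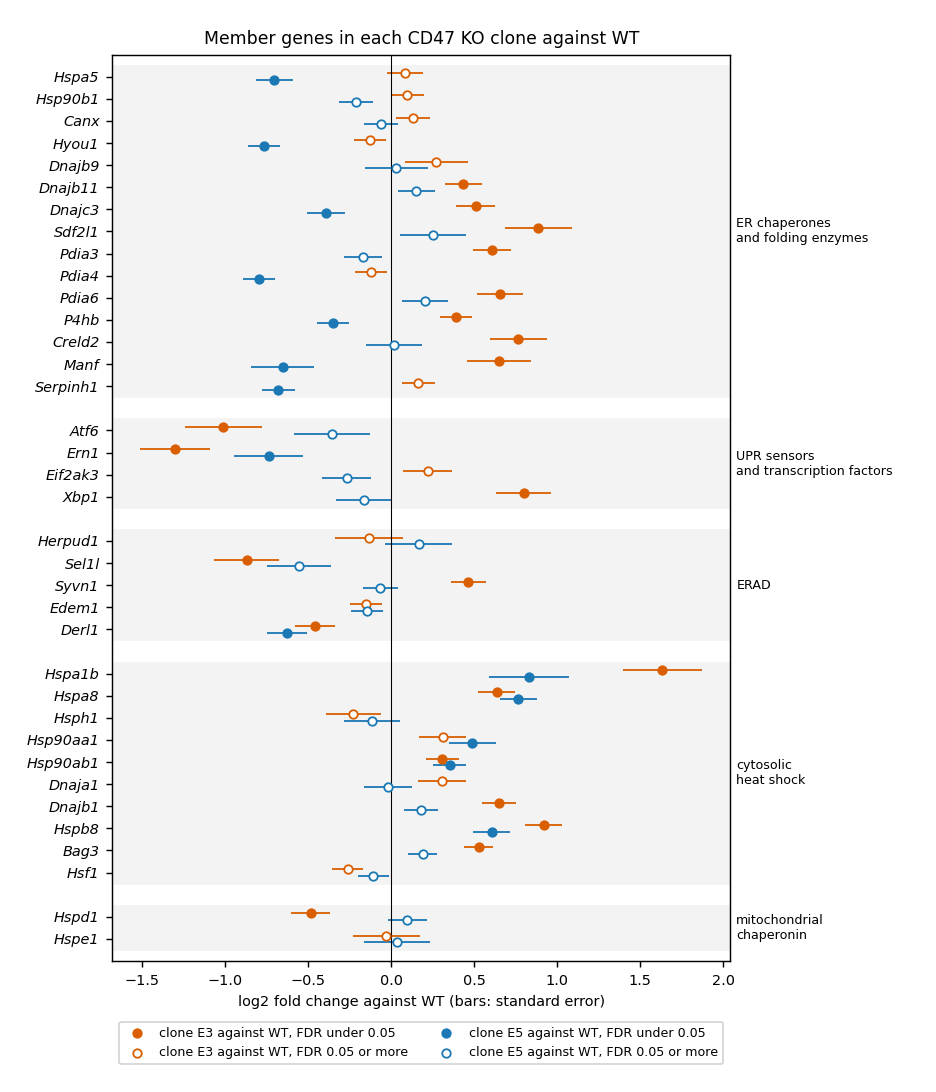
Log2 fold changes of the 36 tested genes against WT in clone E3 (orange) and clone E5 (blue). Points are edgeR estimates with their standard errors, filled where the FDR is under 0.05, and genes are grouped by role. Filled points of the ER chaperones lie right of 0 in clone E3 (8 genes) and left of 0 in clone E5 (7 genes), and those of the cytosolic heat shock genes lie right of 0 in both.

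The ER chaperones and folding enzymes that passed the test were above WT in E3 and below it in E5, with a few genes called in both. Of 15 genes, 8 rose in clone E3 and the other 7 did not pass the test, whereas 7 fell in clone E5 and the other 8 did not pass. Called in both clones were 3 genes (Dnajc3, P4hb and Manf), each higher in E3 and lower in E5. The estimates had opposite signs for 8 genes, were above 0 in both clones for 5 and below 0 in both for 2 (Hyou1 and Pdia4). Their median log2 fold change was 0.39 in E3 and -0.21 in E5. The summed level of the 15 genes was 7503 to 7659 CPM in the WT libraries, 8329 to 9533 CPM in clone E3 and 5755 to 6397 CPM in clone E5, without overlap between the lines. Between the clones, 12 of the 15 were lower in E5 than in E3, and all 15 estimates were negative, with a median of -0.67. If replicate 3 of clone E3 was left out, 9 rose in E3, 1 (Pdia6) rose and 7 fell in E5, and 13 were lower in E5 than in E3.

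Hspa5 (BiP) and Hyou1, an exchange factor for it, were lower in clone E5. Hspa5 (ENSMUSG00000026864.14, chr2:34661982-34667559 on the plus strand, GRCm39), the ER HSP70 and central UPR target whose promoter carries the ERSE and the UPR element core printed above, was at 1300.2, 1228 and 1205 CPM in the WT libraries, 1376, 1159 and 1427 CPM in clone E3 and 826, 719.7 and 749 CPM in clone E5. All 3 libraries of clone E5 lay below all others, and clone E3 overlapped WT. The log2 fold change was 0.09 ± 0.11 (SE, adjusted p = 0.591) in E3, -0.70 ± 0.11 (SE, adjusted p = 0.00125) in E5 and -0.79 ± 0.11 (SE, adjusted p = 0.000423) for E5 against E3. Hyou1, the large HSP70 relative that acts as a nucleotide exchange factor for BiP, was at 369, 356 and 364 CPM in the WT libraries, 363, 336 and 300.4 CPM in clone E3 and 225, 211 and 205 CPM in clone E5. All E5 libraries again lay below all others. The log2 fold change was -0.77 ± 0.10 (SE, adjusted p = 0.00032) in E5, compared with -0.13 ± 0.10 (SE, adjusted p = 0.359) in E3. In the annotation used here, 44.2% of the exon bases of Hspa5 overlap exons of other genes, the largest overlap being with the antisense gene Rabepk. The strand setting of the counting is not given in the sources used here. Such overlaps, with the antisense gene overlapping most in brackets, cover 30.1% of the exon bases of Hsf1 (Dgat1), 26.5% of Pdia3 (Catsper2), 22% of Xbp1 (Ccdc117) and 21.2% of P4hb (Gm57341).

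Dnajc3 and Dnajb11, J-domain co-chaperones of BiP, both rose in clone E3 and differed from each other in clone E5. Dnajc3 (P58IPK) was at 83.3, 79.5 and 81.3 CPM in the WT libraries, 125, 125 and 98.2 CPM in clone E3 and 68.6, 57.8 and 59.8 CPM in clone E5. The lines did not overlap, with E3 above WT and E5 below it. Its log2 fold changes were 0.51 ± 0.12 (SE, adjusted p = 0.00778) and -0.39 ± 0.12 (SE, adjusted p = 0.0365), with -0.90 ± 0.12 (SE, adjusted p = 0.000264) between the clones. The call in E5 was lost when any WT library or E5 replicate 2 or 3 was left out (log2 fold change -0.41 to -0.34). Dnajb11 (ERdj3) rose in E3, at 86.3, 88.3 and 97.9 CPM in the WT libraries, 113, 118 and 137 CPM in clone E3 and 110.4, 101 and 91.8 CPM in clone E5. The changes of Dnajb11 were 0.43 ± 0.11 (SE, adjusted p = 0.014) in E3 and 0.15 ± 0.11 (SE, adjusted p = 0.38) in E5. The difference between the clones, -0.28 ± 0.11 (SE, adjusted p = 0.0769), did not pass the test. The call in E3 was lost without WT replicate 1 or 2 (0.39 and 0.41). Sdf2l1, a partner of Dnajb11 in complexes with BiP, was at 23.6, 24.2 and 26.3 CPM in the WT libraries, 38.4, 39.7 and 59 CPM in clone E3 and 37.1, 28.4 and 22.6 CPM in clone E5. All E3 libraries were above WT and the E5 libraries overlapped WT. The changes were 0.89 ± 0.20 (SE, adjusted p = 0.00765) and 0.25 ± 0.20 (SE, adjusted p = 0.427). Without E3 replicate 3 the E3 change was 0.66. Its difference between the clones, -0.64 ± 0.20 (SE, adjusted p = 0.0331), was -0.40 without E3 replicate 3 and lost its call when any WT library or E5 replicate 2 or 3 was left out (-0.63 to -0.47).

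The disulfide isomerases differed between the clones. Pdia3 (ERp57), which works with calnexin and calreticulin, was at 630.0, 674 and 704 CPM in the WT libraries, 977, 956 and 1129.9 CPM in clone E3 and 661, 594 and 530.0 CPM in clone E5. Every E3 library was above every WT library, and E5 overlapped WT. The changes were 0.61 ± 0.11 (SE, adjusted p = 0.0028) and -0.17 ± 0.11 (SE, adjusted p = 0.338). Pdia4 (ERp72) moved in the other clone, at 388, 382 and 394 CPM in the WT libraries, 379.6, 315 and 378 CPM in clone E3 and 226, 225 and 221 CPM in clone E5. Its E3 change of -0.12 ± 0.10 (SE, adjusted p = 0.389) did not pass the test and its E5 change was -0.79 ± 0.10 (SE, adjusted p = 0.000254), the most negative among the 15 genes. Pdia6 was at 519, 508 and 521 CPM in the WT libraries, 766, 677 and 1000.1 CPM in clone E3 and 635, 602 and 546 CPM in clone E5. It rose by 0.66 ± 0.14 (SE, adjusted p = 0.00523) in E3, and its E5 libraries were also all above WT with a change of 0.20 ± 0.14 (SE, adjusted p = 0.343) that did not pass the test. Without E3 replicate 3 the E3 change of Pdia6 was 0.48. P4hb, both a disulfide isomerase and a subunit of collagen prolyl 4-hydroxylase, was at 812, 754 and 739 CPM in the WT libraries, 989, 938 and 1097 CPM in clone E3 and 621, 609.9 and 578 CPM in clone E5. It was above WT in E3 and below WT in E5 without overlap. Its changes were 0.39 ± 0.10 (SE, adjusted p = 0.012) and -0.35 ± 0.10 (SE, adjusted p = 0.0275). Its E3 call was lost without WT replicate 2 or 3 (0.36 and 0.37) and its E5 call when any 1 WT or E5 library was left out (-0.38 to -0.31). Between the clones, the log2 fold changes were -0.78 ± 0.11 (SE, adjusted p = 0.000609) for Pdia3, -0.67 ± 0.10 (SE, adjusted p = 0.000518) for Pdia4 and -0.74 ± 0.10 (SE, adjusted p = 0.000294) for P4hb. That of Pdia6 was -0.45 ± 0.14 (SE, adjusted p = 0.0293), was -0.27 without E3 replicate 3 and lost its call without E5 replicate 2 or 3 (-0.46 and -0.39).

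Among the smaller ER proteins, Manf, a secreted factor that binds BiP, was the only one of the 36 genes past the DEG threshold between the clones. It was at 150.2, 137 and 124 CPM in the WT libraries, 184, 168 and 293 CPM in clone E3 and 98.1, 81.2 and 82.4 CPM in clone E5, and the lines did not overlap. The log2 fold changes were 0.65 ± 0.19 (SE, adjusted p = 0.027) in E3, -0.65 ± 0.19 (SE, adjusted p = 0.0361) in E5 and -1.30 ± 0.19 (SE, adjusted p = 0.00067) for E5 against E3. Replicate 3 of clone E3 was the highest library, and without it the E3 change was 0.36 and the difference between the clones -1. The E3 call was lost when any WT library was left out (0.58 to 0.71), the E5 call when any WT or E5 library was (-0.75 to -0.59). Of its exon bases, 42.8% overlap exons of other genes, the largest overlap being with Rbm15b, which is on the same strand. Creld2, an ER protein induced in ER stress, was at 33.5, 34.3 and 35.1 CPM in the WT libraries, 51.7, 47 and 76.5 CPM in clone E3 and 39, 34.5 and 30.7 CPM in clone E5. It rose in E3 by 0.77 ± 0.17 (SE, adjusted p = 0.00692) and overlapped WT in E5 (0.02 ± 0.17 SE, adjusted p = 0.958). Without E3 replicate 3 the E3 change of Creld2 was 0.52. Its difference between the clones was -0.75 ± 0.17 (SE, adjusted p = 0.00736), and -0.50 without E3 replicate 3.

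Serpinh1 (HSP47), which chaperones procollagen, was at 766, 784 and 780.0 CPM in the WT libraries, 875, 797 and 937 CPM in clone E3 and 445, 498 and 512 CPM in clone E5. It fell in E5 (-0.68 ± 0.10 SE, adjusted p = 0.000838). It did not pass the test in E3 (0.16 ± 0.10 SE, adjusted p = 0.244), although all 3 E3 libraries lay above WT. The difference between the clones was -0.84 ± 0.10 (SE, adjusted p = 0.000152). Hsp90b1 was at 1478, 1450.3 and 1515 CPM in the WT libraries, 1655, 1499 and 1606 CPM in clone E3 and 1401, 1282 and 1159.8 CPM in clone E5. Neither change against WT passed the test (0.10 ± 0.10 SE, adjusted p = 0.497 in E3 and -0.21 ± 0.10 SE, adjusted p = 0.176 in E5). The difference between the clones, -0.31 ± 0.10 (SE, adjusted p = 0.0397), lost its call when any WT library, E3 replicate 1 or E5 replicate 2 or 3 was left out (-0.31 to -0.24). Canx and the co-chaperone Dnajb9 (ERdj4) passed no test, with changes of 0.13 and 0.27 in E3 and -0.06 and 0.03 in E5. Without replicate 3 of clone E3, Canx was called higher in E3 (0.22) and lower in E5 than in E3 (-0.27).

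**Figure D3:**
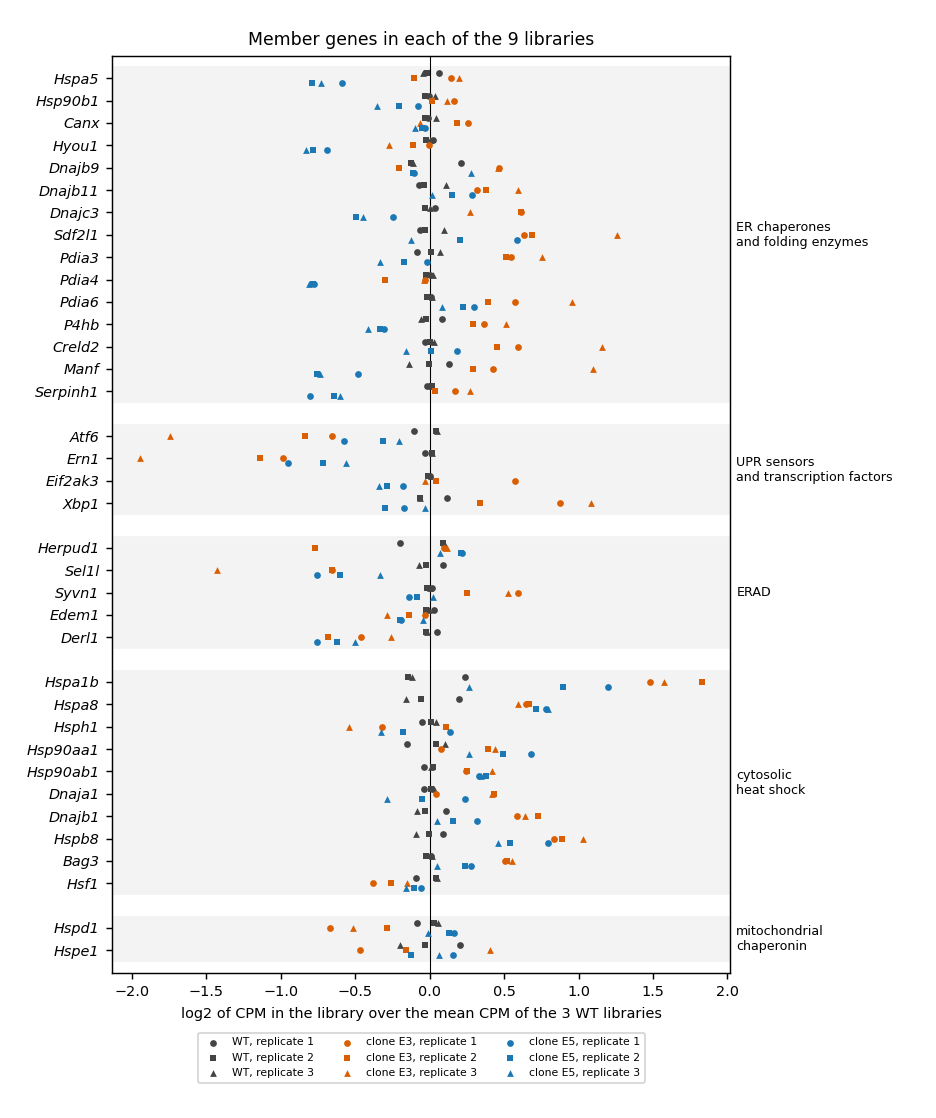
Levels of the 36 tested genes in each of the 9 libraries, as the log2 of CPM over the mean CPM of the WT libraries. Colours mark the lines and symbols the replicates, and genes are grouped by role. Hspa5, Hyou1, Pdia4 and Serpinh1 lie low in all 3 libraries of clone E5, and replicate 3 of clone E3 (orange triangles) is the lowest library for Atf6, Ern1 and Sel1l.

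Transcripts of the sensors IRE1 and ATF6 were lower in clone E3. In that clone 8 of the 15 ER chaperones and folding enzymes were called higher, and the other 7, Hspa5 among them, did not pass the test. Ern1 (ENSMUSG00000020715.10, chr11:106285476-106378678 on the minus strand) encodes IRE1α, and was at 472, 487 and 486 CPM in the WT libraries, 244, 219 and 125 CPM in clone E3 and 249.7, 293 and 326 CPM in clone E5. Both clones lay below WT without overlap. The log2 fold changes were -1.30 ± 0.21 (SE, adjusted p = 0.00125) and -0.73 ± 0.21 (SE, adjusted p = 0.0305). Without replicate 3 of clone E3, its lowest library, the change in E3 was -1.06. The call in E5 was lost when any WT library or E5 replicate 1 or 2 was left out (-0.75 to -0.64). Atf6 was at 406, 449.7 and 452 CPM in the WT libraries, 276, 244 and 130.2 CPM in clone E3 and 293, 351 and 378 CPM in clone E5, again lower in every KO library than in any WT library. The change was -1.01 ± 0.23 (SE, adjusted p = 0.00805) in E3 and -0.36 ± 0.23 (SE, adjusted p = 0.316) in E5. Without replicate 3 of clone E3 it was -0.75 in E3, under the DEG threshold, and -0.35 in E5, where it then passed the test. The transcripts of these 2 genes are 7002 and 7541 bases long. E5 was above E3 for both without overlap, by 0.56 ± 0.21 (SE, adjusted p = 0.0619) and 0.65 ± 0.23 (SE, adjusted p = 0.0514), differences that passed the test without replicate 3 of clone E3 (0.33 and 0.40).

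Xbp1, the transcription factor whose mRNA IRE1 splices, went the other way in clone E3, at 90.6, 79.9 and 79.8 CPM in the WT libraries, 153, 106 and 176 CPM in clone E3 and 74.1, 67.9 and 81.7 CPM in clone E5. The E3 libraries were all above WT and the E5 libraries overlapped WT. Changes were 0.80 ± 0.17 (SE, adjusted p = 0.0053) and -0.16 ± 0.17 (SE, adjusted p = 0.556), and -0.96 ± 0.17 (SE, adjusted p = 0.0018) between the clones. Without replicate 3 of clone E3 the change of Xbp1 was 0.63 in E3 and -0.79 between the clones. Gene counts do not separate the spliced from the unspliced mRNA, so IRE1 activity was not measured. Eif2ak3 (PERK) was at 34.7, 34.3 and 34.9 CPM in the WT libraries, 51.4, 35.7 and 33.9 CPM in clone E3 and 30.6, 28.4 and 27.4 CPM in clone E5. Neither change against WT passed the test (0.22 ± 0.15 SE, adjusted p = 0.283 and -0.27 ± 0.15 SE, adjusted p = 0.235). The E3 change passed the test without its replicate 3 (0.33). E5 was lower than E3 (-0.49 ± 0.15 SE, adjusted p = 0.0278), a call lost without E3 replicate 1 or any E5 library (-0.54 to -0.28). The summed level of the 4 genes was 1004 to 1053 CPM in WT, 466 to 724 CPM in E3 and 647 to 814 CPM in E5, so the 2 clones overlapped and both lay below WT. The sum mostly reflects Ern1 and Atf6, with WT means of 482 and 436 CPM, compared with 83.4 CPM for Xbp1 and 34.7 CPM for Eif2ak3.

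Of the 5 ERAD genes tested, 1 rose and 2 fell in clone E3, and 1 fell in clone E5, with a median change of -0.15 in E3 and -0.14 in E5. Syvn1 (HRD1), the ubiquitin ligase of the pathway, was at 85.3, 83.6 and 84.7 CPM in the WT libraries, 128, 101 and 122 CPM in clone E3 and 76.9, 79.8 and 85.9 CPM in clone E5. It rose in E3 (0.47 ± 0.11 SE, adjusted p = 0.00761), overlapped WT in E5 (-0.06 ± 0.10 SE, adjusted p = 0.719) and was lower in E5 than in E3 (-0.53 ± 0.11 SE, adjusted p = 0.00359). Its adaptor Sel1l was at 191, 176 and 171 CPM in the WT libraries, 114, 114 and 66.5 CPM in clone E3 and 106, 118 and 142 CPM in clone E5. It was below WT in both clones without overlap. The change was -0.87 ± 0.19 (SE, adjusted p = 0.00701) in E3 and -0.55 ± 0.19 (SE, adjusted p = 0.0675) in E5. The canonical transcript has 6356 bases, and without replicate 3 of clone E3, in which long transcripts read low, the change was -0.66 in E3 and -0.55 in E5, where it then passed the test. Derl1, a membrane component of the retrotranslocation channel, was at 209, 199 and 199.7 CPM in the WT libraries, 147, 126 and 169.5 CPM in clone E3 and 119.7, 131 and 143 CPM in clone E5. All KO libraries were below WT. It changed by -0.46 ± 0.12 (SE, adjusted p = 0.0154) and -0.62 ± 0.12 (SE, adjusted p = 0.00424). The E3 call was lost without WT replicate 1 (-0.44). Herpud1, an early UPR target that carries an ERSE-II, was at 83.9, 102 and 103 CPM in the WT libraries, 103, 56.4 and 105 CPM in clone E3 and 112, 111 and 101 CPM in clone E5. The 3 lines overlapped and its changes were -0.13 ± 0.20 (SE, adjusted p = 0.666) and 0.17 ± 0.20 (SE, adjusted p = 0.624). Edem1, which marks glycoproteins for degradation, changed by -0.15 and -0.14, neither past the test.

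Set beside the promoter elements, the 9 tested ER genes with an ERSE or ERSE-II included 5 that rose in E3 and 2 that fell in E5, with medians of 0.43 and -0.06. The 11 tested ER genes with a window and neither element had 4 higher and 2 lower in E3 and 4 lower in E5, with medians of 0.22 and -0.27. These are descriptions of the letters in 1 window per transcript start, and no test was made.

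The cytosolic heat shock genes that passed the test were higher, in both clones. Of 10 tested, 6 rose in clone E3 and the other 4 did not pass, and 5 rose in clone E5 and the other 5 did not pass, with median changes of 0.42 and 0.27. Their summed level, over 12 genes, was 9550 to 9665 CPM in WT, 11757 to 13008 CPM in E3 and 12693 to 13278 CPM in E5, so both clones lay above WT and overlapped each other. The sum mostly reflects Hsp90ab1, Hspa8 and Hsp90aa1, with WT means of 5791, 1802 and 1341 CPM. Between the clones, 3 of the 10 tested genes were lower in E5 and the other 7 did not pass. If replicate 3 of clone E3 was left out, 6 rose and 1 (Hsf1) fell in E3 and 6 rose in E5.

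Hspa8 and Hspa1b, the HSP70 genes tested in this cytosolic group, rose in both clones. Hspa8 was at 2061, 1732 and 1613 CPM in the WT libraries, 2827, 2861 and 2719 CPM in clone E3 and 3098, 2959.9 and 3129 CPM in clone E5. The KO libraries all lay above WT. The changes were 0.64 ± 0.11 (SE, adjusted p = 0.00184) and 0.77 ± 0.11 (SE, adjusted p = 0.000795), calls that held under all 17 alternatives in both clones. Of its 100-base windows, 62.8% are also found in other genes, most often the predicted gene Gm15459, so the level is uncertain where the counting split reads. Hspa1b (ENSMUSG00000090877.4, chr17:35175412-35178214 on the minus strand) had the largest fold change of the 36 genes, from a low level. It was at 1.7, 1.3 and 1.33 CPM in the WT libraries, 4.04, 5.13 and 4.31 CPM in clone E3 and 3.32, 2.69 and 1.74 CPM in clone E5, or 62 to 85 counts per library in WT, 196 to 243 in E3 and 94 to 154 in E5. The change was 3.1-fold in E3 (log2 1.63 ± 0.24 SE, adjusted p = 0.000686) and 1.78-fold in E5 (log2 0.83 ± 0.24 SE, adjusted p = 0.0346). The E5 call was lost when any WT library or E5 replicate 1 or 2 was left out (0.60 to 0.96), and 49.9% of its windows are shared with other genes, most often Hspa1a. E5 was lower than E3 (-0.80 ± 0.23 SE, adjusted p = 0.0217), a call lost without E3 replicate 2 or E5 replicate 2 or 3 (-0.83 to -0.58).

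Of the HSP90 genes, Hsp90ab1 passed the test in both clones and Hsp90aa1 in clone E5. Hsp90ab1 was at 5651, 5891 and 5831 CPM in the WT libraries, 6844, 6903 and 7750.5 CPM in clone E3 and 7272, 7538 and 7363 CPM in clone E5. Every KO library was above every WT library. It changed by 0.31 ± 0.10 (SE, adjusted p = 0.0394) and 0.35 ± 0.10 (SE, adjusted p = 0.0303). Both calls were lost when any WT or E5 library was left out (0.29 to 0.32 in E3 and 0.33 to 0.36 in E5). Hsp90aa1, the inducible form, was at 1205, 1381 and 1437 CPM in the WT libraries, 1410.3, 1760.2 and 1819 CPM in clone E3 and 2147, 1882 and 1612 CPM in clone E5. All E5 libraries were above WT and the E3 libraries overlapped it. Its change in E5 was 0.49 ± 0.14 (SE, adjusted p = 0.0336), compared with 0.31 ± 0.14 (SE, adjusted p = 0.123) in E3. Its E5 call was lost when any WT library or E5 replicate 1 or 2 was left out (0.38 to 0.54), and the difference between the clones was 0.18 ± 0.14 (SE, adjusted p = 0.369). Of the windows of Hsp90aa1, 44.1% are shared with other genes, most often the predicted gene Gm12346. Other genes overlap 34.9% of the exon bases of Hsp90ab1, the largest overlap being with a predicted antisense gene.

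Hspb8 and Bag3 form a complex that clears misfolded protein by autophagy. Hspb8 was at 37.6, 35.3 and 33.1 CPM in the WT libraries, 63.1, 65.3 and 72.1 CPM in clone E3 and 61.2, 51.4 and 48.6 CPM in clone E5, in which the lines did not overlap and WT was lowest. It rose by 0.92 ± 0.11 (SE, adjusted p = 0.000244) in E3 and 0.60 ± 0.11 (SE, adjusted p = 0.00342) in E5. Bag3 was at 83.7, 81.6 and 84.1 CPM in the WT libraries, 118, 119 and 122 CPM in clone E3 and 101, 97.9 and 86.1 CPM in clone E5. It rose in E3 (0.53 ± 0.09 SE, adjusted p = 0.00158), and in E5, where all libraries were also above WT, the change was 0.19 ± 0.09 (SE, adjusted p = 0.164). Between the clones it differed by -0.34 ± 0.09 (SE, adjusted p = 0.0157), a call lost without E5 replicate 2 or 3 (-0.36 and -0.27).

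Dnajb1 (HSP40), the J-protein of the heat shock response, was at 44.7, 40.5 and 39 CPM in the WT libraries, 62.1, 68.4 and 64.6 CPM in clone E3 and 51.7, 46.2 and 42.9 CPM in clone E5. It rose in E3 (0.65 ± 0.10 SE, adjusted p = 0.00101) and did not pass the test in E5 (0.18 ± 0.10 SE, adjusted p = 0.248). E5 was lower than E3 (-0.47 ± 0.10 SE, adjusted p = 0.00558). Hsf1, the transcription factor of the response, was at 89.4, 98 and 98.4 CPM in the WT libraries, 73.3, 79.7 and 85.8 CPM in clone E3 and 91.4, 88.6 and 85.2 CPM in clone E5. The E3 libraries lay below WT and the E5 libraries overlapped it. Neither change passed the test (-0.26 ± 0.09 SE, adjusted p = 0.0587 and -0.11 ± 0.09 SE, adjusted p = 0.469), although the E3 change did without its replicate 3 (-0.32). The exchange factor Hsph1 (HSP110) and the J-protein Dnaja1 passed no test, with changes of -0.23 and 0.31 in E3 and -0.11 and -0.02 in E5. Of the exon bases of Dnaja1, 84.2% overlap exons of other genes, the largest overlap being with the antisense gene Smu1.

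Of the mitochondrial chaperonin pair, Hspd1 fell in clone E3 and Hspe1 passed no test with all libraries. Hspd1 (HSP60) was at 1580.1, 1714 and 1741 CPM in the WT libraries, 1053, 1375 and 1174 CPM in clone E3 and 1882, 1838 and 1665 CPM in clone E5. It fell in E3 (-0.48 ± 0.12 SE, adjusted p = 0.011), overlapped WT in E5 (0.10 ± 0.12 SE, adjusted p = 0.623) and was higher in E5 than in E3 (0.58 ± 0.12 SE, adjusted p = 0.0041). Hspe1 (HSP10), its co-chaperonin, shares the promoter region with the heat shock elements shown above, and was at 182, 155 and 138 CPM in the WT libraries, 114, 142 and 210.2 CPM in clone E3 and 176, 145 and 165 CPM in clone E5. The lines overlapped, with changes of -0.03 ± 0.20 (SE, adjusted p = 0.934) and 0.03 ± 0.20 (SE, adjusted p = 0.931), and 0.06 ± 0.20 (SE, adjusted p = 0.838) between the clones. The canonical transcript of Hspe1 has 774 bases. With replicate 3 of clone E3 left out, in which short transcripts read high, Hspe1 was at -0.31 in E3, which did not pass the test, and at 0.35 for E5 against E3, which did, beside -0.47 and 0.57 for Hspd1. The difference between the 2 genes was not tested.

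Other genes of the same pathways were taken from lists written for this comparison. Their counts stand against the shares of all genes given above, and with replicate 3 of clone E3 left out against 21.8% higher and 21.5% lower in E3 and 20.8% and 21.2% in E5. Of 25 other ER folding genes, 10 rose and 2 fell in clone E3 (median 0.29), and 1 rose and 4 fell in clone E5 (median -0.06). With that library left out, the numbers higher and lower were 10 and 3 in E3 and 3 and 6 in E5, with a median of 0.16 in E3. The ER oxidase Ero1a fell in both clones, at 361 ± 34.7 CPM (SD, n = 3) in WT, 107 ± 25.5 CPM in E3 and 215 ± 26.2 CPM in E5 (log2 -1.75 ± 0.18 SE, adjusted p = 8.06e-05 and -0.75 ± 0.17 SE, adjusted p = 0.0117). The prolyl isomerases Fkbp14 (1.46 ± 0.26 SE, adjusted p = 0.00228) and Fkbp7 (0.97 ± 0.21 SE, adjusted p = 0.00642) rose in E3, and the other genes with the largest changes in E5 were the J-protein Dnajc1 (-0.38 ± 0.12 SE, adjusted p = 0.0458) and Mesd, a chaperone of LDL receptor family proteins (-0.38 ± 0.12 SE, adjusted p = 0.0475). Of 19 other ERAD genes, 3 rose and 1 fell in E3, a share higher that was at the background. The changes in E3 were led by the ER selenoproteins Selenok (0.72) and Selenos (0.70) and by Edem2 (0.58). In E5, 4 of them fell, led by Selenos (-0.58), Herpud2 (-0.41) and Ube2g2 (-0.35). With replicate 3 of clone E3 left out, 4 ERAD genes rose and 2 fell in E3, and 1 rose and 7 fell in E5.

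Of 11 other UPR regulators, 1 rose and 1 fell in clone E3 and 1 rose and 2 fell in clone E5, and with replicate 3 of clone E3 left out the numbers higher and lower were 1 and 3 in E3 and 1 and 4 in E5. Creb3l1, an ER-anchored transcription factor of the ATF6 type that drives collagen genes, was at 4.63, 3.28 and 3.71 CPM in the WT libraries, 9.7, 5.13 and 7.5 CPM in clone E3 and 0.409, 0.672 and 0.869 CPM in clone E5. It was higher in E3 (0.94 ± 0.26 SE, adjusted p = 0.0208) and lower in E5 (-2.56 ± 0.31 SE, adjusted p = 0.000239), without overlap between the lines. Mbtps2, the protease that releases ATF6, fell in E3 (-0.68 ± 0.16 SE, adjusted p = 0.00945). Wfs1, an ER membrane protein, fell in E5 (-1.07 ± 0.14 SE, adjusted p = 0.000331), and Rtcb, the ligase that joins spliced Xbp1, rose slightly (0.29 ± 0.09 SE, adjusted p = 0.0454). Of 10 collagen genes, the cargo of Serpinh1 and P4hb, 5 rose and 1 fell in E3 and 4 fell in E5, with medians of 0.74 and -0.67. Those with the largest changes were Col5a2 (-2.46 ± 0.34 SE, adjusted p = 0.000526), Col1a2 (1.41 ± 0.36 SE, adjusted p = 0.0148) and Col6a2 (1.07 ± 0.13 SE, adjusted p = 0.000296) in E3, and Col5a2 (-3.60 ± 0.39 SE, adjusted p = 0.000109), Col1a1 (-1.45 ± 0.27 SE, adjusted p = 0.00392) and Col5a1 (-0.85 ± 0.14 SE, adjusted p = 0.0016) in E5. Without replicate 3 of clone E3, 9 of the 10 rose in E3.

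Genes of the PERK-ATF4 arm that passed the test fell in clone E3 and mostly fell in clone E5. Of 18 genes tested, 13 fell in clone E3 and the other 5 did not pass (median -1.23), and 9 fell and 2 rose in clone E5 (median -0.40). Atf3, a stress-induced transcription factor of this arm, was at 38.6, 48.1 and 45.9 CPM in the WT libraries, 3.64, 2.03 and 3.8 CPM in clone E3 and 8.92, 9.95 and 12.9 CPM in clone E5. It changed by -3.81 ± 0.24 (SE, adjusted p = 4.77e-06) and -2.06 ± 0.22 (SE, adjusted p = 8.99e-05). Ppp1r15a (GADD34), which reverses the translational block, was at 171, 186 and 179 CPM in the WT libraries, 20.8, 14.5 and 19.5 CPM in clone E3 and 27.9, 39.4 and 53.2 CPM in clone E5. This gene changed by -3.29 ± 0.23 (SE, adjusted p = 8.59e-06) and -2.15 ± 0.21 (SE, adjusted p = 6.47e-05). For both genes the lines did not overlap and ranked WT, E5, E3. Trib3, a target of CHOP, fell in E3 (-2.65 ± 0.30 SE, adjusted p = 0.000155) and in E5 (-0.91 ± 0.28 SE, adjusted p = 0.0445). Nupr1, a stress-induced chromatin protein, was called lower in both clones, with a change of -1.72 ± 0.27 (SE, adjusted p = 0.00127) in E5. Atf4 itself changed by -0.83 ± 0.15 (SE, adjusted p = 0.002) in E3 and -0.15 ± 0.15 (SE, adjusted p = 0.543) in E5 and Ddit3 (CHOP) by -2.53 ± 0.35 (SE, adjusted p = 0.000519) and -1.16 ± 0.33 (SE, adjusted p = 0.0332), 2 genes chosen after their values were seen. Between the clones, 16 of the 18 were higher in E5 than in E3 (median 0.95). Without replicate 3 of clone E3 the counts were 15 lower in E3, 3 higher and 10 lower in E5, and 17 higher in E5 than in E3.

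Of 27 other cytosolic heat shock genes tested, 5 rose and 3 fell in clone E3 (median 0.12) and 2 rose and 2 fell in clone E5 (median 0.03). The changes in E3 were led by the J-protein Dnajb5 (1.15 ± 0.26 SE, adjusted p = 0.0076), Hspa2 (0.78 ± 0.14 SE, adjusted p = 0.00186) and the small heat shock protein Hspb6 (0.63 ± 0.13 SE, adjusted p = 0.00411), and those in E5 by Hspa4l (1.23 ± 0.20 SE, adjusted p = 0.00142), Bag2 (0.33 ± 0.10 SE, adjusted p = 0.034) and Dnajc7 (-0.33 ± 0.09 SE, adjusted p = 0.0237). With replicate 3 of clone E3 left out, 7 rose and 8 fell in E3, and 2 rose and 6 fell in E5. In that fit the shares that rose in E3 and fell in E5 were near those of all genes. Of 8 other mitochondrial chaperones and proteases, 5 fell in E3 (median -0.47), among them the protease Lonp1 (-1.49 ± 0.14 SE, adjusted p = 6.37e-05), the J-protein Dnaja3 (-1.22 ± 0.11 SE, adjusted p = 4.11e-05) and the mitochondrial HSP70 Hspa9 (-1.08 ± 0.11 SE, adjusted p = 0.000108). In E5, Lonp1 (-0.80 ± 0.14 SE, adjusted p = 0.00278) and Dnaja3 (-0.39 ± 0.11 SE, adjusted p = 0.0278) fell and the mitochondrial HSP90 Trap1 rose (0.29 ± 0.09 SE, adjusted p = 0.0411), and 5 of the 8 were higher in E5 than in E3.

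**Figure D4:**
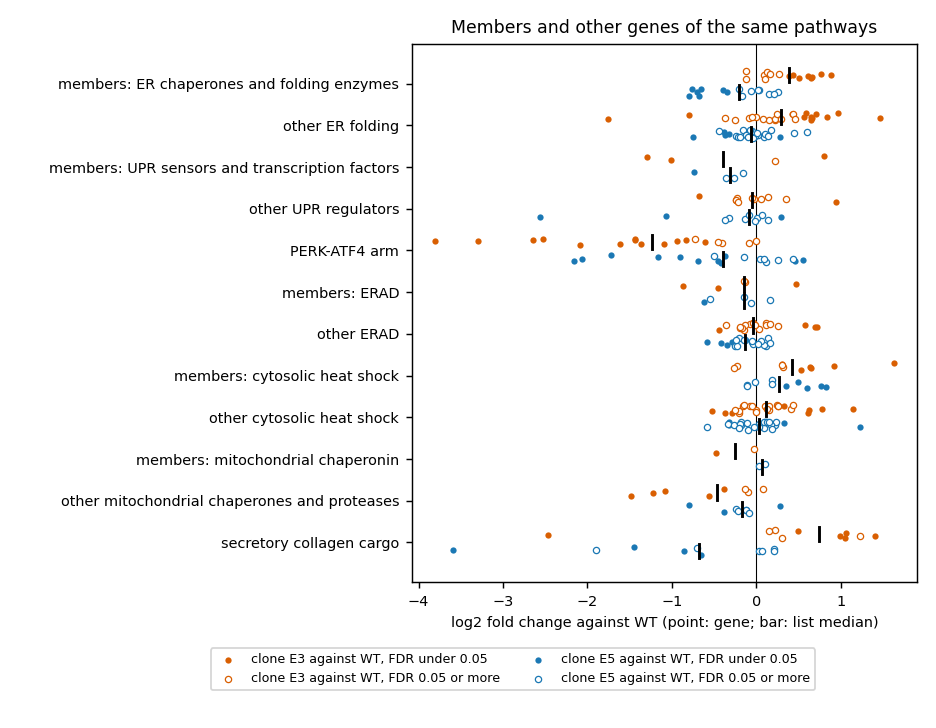
Log2 fold changes against WT of the genes described and of other genes of the same pathways, in clone E3 (orange) and clone E5 (blue). Each point is a gene, filled where the FDR is under 0.05, and black bars are list medians. The PERK-ATF4 arm has the lowest median in clone E3 (-1.23), and the ER chaperone medians lie on either side of 0 (0.39 in E3 and -0.21 in E5).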

How the data were processed

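Polyadenylated RNA of 3 replicates each of WT, CD47 KO clone E3 and CD47 KO clone E5 was sequenced in paired-end mode from a directional library. Quality control used FastQC, Trimmomatic removed adapters and low-quality reads, and STAR aligned the rest to GRCm39. The authors deposited unnormalized counts for each gene. The counting tool and its strand setting are not given in the sources used here, so overlapping genes and near-identical copies are uncertain. Libraries were grouped by their labels. The members and the lists were chosen with earlier results of these data known.

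Counts were analysed in R (version 4.3.3) with edgeR (version 4.0.16). The filterByExpr function (minimum count 10, minimum total 15) kept 14593 of 50813 genes, which were TMM-scaled and fitted with all 3 lines in 1 quasi-likelihood model. Calls used an FDR under 0.05 (Benjamini-Hochberg over all genes tested), and DEGs had to change by more than 1 on the log2 scale as well, the thresholds of the study, which used DESeq2 (version 1.42.0, here an alternative). SE was obtained by dividing the size of the log2 fold change by the square root of F. CPM values are TMM-scaled. The replicate coefficient of variation was 14.8%. On simulated counts for E3 against WT (14352 genes), 53 of 85 genes changed by 1 on the log2 scale and 110 of 114 changed by 2 were recovered, with 15 false calls. Every member is described; called members have their values by library, and of the other lists the 3 called genes with the largest change per clone are named. Transcript lengths and overlaps are from GENCODE vM39, matched by gene ID (50267 of 50813). The labels give fewer reads per sample than the total counts, and whether reads or read ends were counted is not given in the sources used here, so counting error was not derived from the totals. Alternatives are given in the closing section.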

Additional observations from a re-analysis of the deposited data

Results flagged for a closer look

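The 2 clones carry the same targeted gene, and their changes differed by the direct test of clone E5 against clone E3 for 19 of the 36 genes. Of these, 1 was higher and 18 were lower in E5, against 14.7% and 17.2% of all genes tested. Among the ER chaperones and folding enzymes, the log2 fold change of E5 against E3 was -0.79 for Hspa5, -0.31 for Hsp90b1, -0.64 for Hyou1, -0.90 for Dnajc3, -0.64 for Sdf2l1, -0.78 for Pdia3, -0.67 for Pdia4, -0.45 for Pdia6, -0.74 for P4hb, -0.75 for Creld2, -1.30 for Manf and -0.84 for Serpinh1. Among the UPR sensors and transcription factors it was -0.49 for Eif2ak3 and -0.96 for Xbp1, and for the ERAD ligase Syvn1 -0.53. Among the heat shock genes it was -0.80 for Hspa1b, -0.47 for Dnajb1, -0.34 for Bag3 and, in the opposite direction, 0.58 for Hspd1. Of 17 alternatives, the call was lost in 9 for Hsp90b1, 7 for Sdf2l1, 5 for Eif2ak3 and 4 each for Pdia6, Hspa1b and Bag3. Whether these differences come from the individual clones or from the editing was not tested.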

How the results depend on the processing

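Results were recomputed with DESeq2, with its size factors in edgeR, with upper-quartile scaling, with no filter on low counts or at least 10 counts in every library, with the 2 lines compared alone, with the replicate block and without each library in turn, and, chosen after seeing the data, with the transcript length trend removed. Over the 36 genes and 3 comparisons, 1668 values kept direction and call, 98 lost their call, 44 gained one and 26, of small changes not called in either fit, changed sign. The log2 fold changes that changed sign were, with at least 10 counts in every library, -0.016 for Edem1 in E5 against E3. Others were, with the length trend removed, 0.023 for Pdia4 in E3 against WT, -0.18 for Edem1 in E5 against E3 and -0.062 for Hsph1 in E5 against E3. Others were, with upper-quartile scaling, 0.062 for Hspe1 in E3 against WT, -0.084 for Edem1 in E5 against E3, -0.051 for Hsp90ab1 in E5 against E3 and -0.043 for Hspe1 in E5 against E3. With 1 library left out the log2 fold changes ran from -0.079 to 0.10 for Creld2 in E5 against WT, -0.17 to 0.098 for Dnaja1 in E5 against WT, -0.11 to 0.15 for Dnajb9 in E5 against WT and -0.051 to 0.066 for Edem1 in E5 against E3, and from -0.28 to 0.10 for Herpud1 in E3 against WT, -0.31 to 0.15 for Hspe1 in E3 against WT, -0.0599 to 0.14 for Hspe1 in E5 against WT, -0.12 to 0.35 for Hspe1 in E5 against E3 and -0.0303 to 0.32 for Hsph1 in E5 against E3. Counts for clone E5 against WT were the least stable: genes higher were 3 with the replicate block and 2 to 7 when 1 library was left out, genes lower were 5 and 5 to 11, and DEGs were 0 to 1. Of all genes, 6.56% were higher and 9.26% lower with the replicate block. With 1 library left out these shares ran from 4.52% to 20.8% and from 7.33% to 21.2%. The replicate numbers did not pair the libraries (correlations of deviations from the line means -0.172 to 0.0472). Genes higher in E5 than in E3 were 3 by DESeq2, 3 with no filter, 3 with the length trend removed and 1 to 5 with 1 library left out, and DEGs were 2 with upper-quartile scaling, 2 with the length trend removed and 1 to 2. Without replicate 3 of clone E3, genes higher and lower were 18 and 6 in E3, 7 and 11 in E5, and 5 and 19 between the clones, and with the length trend removed 16 and 5, 5 and 11, and 3 and 21. The shares of all genes without that library were 21.8% and 21.5%, 20.8% and 21.2%, and 22.4% and 21.7%. With the length trend removed they were 21.1% and 19%, 13.8% and 17.1%, and 18.4% and 22.8%. Upper-quartile scaling moved the median of all genes for E5 against E3 to -0.103 and their split to 1705 higher and 3054 lower, from 2147 and 2514. Over all genes, E5 against WT gave 3307 higher and 3289 lower with the 2 lines alone, 3098 and 3148 without replicate 3 of clone E3 and 674 and 1093 without WT replicate 2, and at least 10 counts in every library left 828, 571 and 836 DEGs in the 3 comparisons. For E5 against WT, the fits with the 2 lines alone and without replicate 3 of clone E3 used the same WT and E5 libraries as the main fit. In the main fit all 3 lines share 1 estimate of the spread. Across these fits the log2 fold change in E5 stayed at -0.55 for Sel1l and at -0.36 to -0.35 for Atf6. Neither gene passed the test in the main fit, and both passed it in the other fits named. In all these cases the cause was not tested.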
